A study of Mus musculus with 14 samples.

Results

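The genes described here are 10 genes of reactive astrocytes: Gfap, Vim, Serpina3n, Lcn2, Aqp4, Cd109, Osmr, S1pr3, Steap4 and Aspg. They were found by symbol among the 55335 genes of the deposited matrices, and all 10 were present. They were followed in single-cell libraries of whole spinal cords from mice aged P115-120 days, which the design text places at a middle stage of disease in a model of amyotrophic lateral sclerosis (ALS). The study asked what the myeloid receptor Clec7a does in the immune responses of microglia. The group SOD1G93A had 3 libraries and carried the mutant human SOD1 transgene (strain B6SJL-Tg(SOD1*G93A)1Gur/J). The group Clec7a-KO had 4 libraries and lacked Clec7a (strain B6.129S6-Clec7atm1Gdb/J). Both alterations were combined in SOD1G93A/Clec7a-KO, with 4 libraries, and the 3 nTg libraries had neither. No further agent is labelled for any group. The strain label differs between the groups, so strain background and genotype cannot be told apart. The human SOD1 transgene is active in many cell types, so a value in astrocytes does not separate a response of these cells from one set off elsewhere in the cord. The labels do not say whether each library is a separate animal, so p-values measure the spread between these libraries.

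Astrocytes are glial cells that take up transmitter, buffer potassium and water, and wrap synapses and vessels. After injury or in neurodegeneration they become reactive: they enlarge, build more intermediate filaments and switch on cytokine receptors and secreted acute-phase proteins. Cytokines of the interleukin-6 family acting through gp130 and STAT3, and inflammatory signals acting through NF-kB, are known inducers of this state. Ependymal cells, which line the central canal, are a related glial type with cilia and are normally rich in vimentin.

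The deposited matrices held 108892 barcodes, of which 89775 passed the filters, and libraries had from 28819852 to 141204910 unique molecular identifiers (UMIs, the count of captured RNA molecules). Cells were clustered without the 10 genes. The astrocyte clusters held 5709 cells, from 36 to 1091 per library, and the ependymal clusters 7682, from 28 to 1565. All 12 astrocyte markers were detected in the astrocyte cells of every library. The fewest cells of both classes were in SOD1G93A/Clec7a-KO replicate 4, with 36 astrocytes and 28 ependymal cells. Sod1 and Clec7a followed the labels: Sod1 was at 2140 to 3420 CPM (UMIs of the gene per 1000000 UMIs) over all barcodes in the transgenic groups against 110 to 230 in the others, and Clec7a was at 0.654 to 2.57 CPM in the groups lacking it against 12.9 to 716. Astrocytes of nTg replicates 1 and 3 and Clec7a-KO replicate 3 lay mostly (83.7% to 88%) in cluster 18, while at least 94.4% of those of every other library lay in cluster 17. Ependymal cells split in the same libraries between clusters 20 and 19. Any pair of libraries shared at most 44 cell barcodes. Xist exceeded Ddx3y in 4 libraries: nTg replicates 1 and 3 and Clec7a-KO replicate 3, which are the 3 libraries with most astrocytes in cluster 18, and SOD1G93A/Clec7a-KO replicate 4, whose astrocytes lay mostly in cluster 17. In libraries without the transgene the Xist split and the cluster split cannot be told apart. A fit with the Xist split as a covariate is given where it changed a call.

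All 10 genes are protein-coding and were placed on GRCm38 with GENCODE vM21. Gfap lies on the minus strand at chr11:102887336-102900912, Vim on the plus strand at chr2:13573927-13582826 and Lcn2 on the minus strand at chr2:32384633-32388252. Serpina3n (plus, chr12:104406729-104414329) stands in a family of 10 other Serpina3 genes with a letter, so the counting could have split its reads. Osmr lies at chr15:6813577-6874969 (minus), S1pr3 at chr13:51408639-51422797 (plus), Cd109 at chr9:78615546-78716253 (plus), Steap4 at chr5:7960457-7982213 (plus) and Aspg at chr12:112106679-112127559 (plus). An annotated antisense gene overlaps Gfap, Aqp4, Cd109, S1pr3 and Aspg. Whether the counting used strand is not given in the sources used here, and reads of such partners cannot be told apart without it.

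Because STAT3 and NF-kB are known inducers of reactive astrocytes, the 250 bases before the start site were searched on both strands in the 8 genes with an entry in the RefSeq promoter table (GRCm38.p6). The STAT letters TTCNNNGAA stood in 1 of the 8 (Steap4, 116 bases before the start), against 7.02% of 32851 windows of the same length. The NF-kB letters GGGNNTTCC stood in 3 (Gfap, Vim and Steap4, at 151, 223 and 226 bases before the start), against 4.98% of windows. The AP-1 letters TGANTCA stood in none, against 6.75%. A match is a description of letters and no binding was measured. The windows of 3 genes that rose in astrocytes and touch no annotated exon are shown 5′ to 3′ on the gene's strand, with the NF-kB match of Gfap in capitals, so that a window with these letters can be set beside 2 without any of the 3 motifs. They lie at chr11:102897201-102897450 (minus) for Gfap, inside the span annotated for the gene, at chr12:104406458-104406707 (plus) for Serpina3n and at chr13:51408368-51408617 (plus) for S1pr3.
Gfap: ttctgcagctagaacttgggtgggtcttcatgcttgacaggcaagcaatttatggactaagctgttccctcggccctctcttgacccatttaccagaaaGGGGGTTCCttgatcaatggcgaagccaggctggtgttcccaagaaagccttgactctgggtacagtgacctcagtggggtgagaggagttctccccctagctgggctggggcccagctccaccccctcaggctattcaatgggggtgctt
Serpina3n: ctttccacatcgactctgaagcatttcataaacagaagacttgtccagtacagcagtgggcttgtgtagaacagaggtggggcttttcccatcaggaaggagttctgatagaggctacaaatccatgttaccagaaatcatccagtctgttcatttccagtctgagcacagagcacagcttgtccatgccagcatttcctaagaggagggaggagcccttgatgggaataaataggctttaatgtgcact
S1pr3: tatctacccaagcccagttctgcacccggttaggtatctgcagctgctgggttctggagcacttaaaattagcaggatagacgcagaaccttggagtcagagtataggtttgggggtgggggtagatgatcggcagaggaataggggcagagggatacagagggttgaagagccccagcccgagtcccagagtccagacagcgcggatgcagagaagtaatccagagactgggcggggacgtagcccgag

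In astrocytes, 8 of the 10 genes were higher in SOD1G93A than in nTg: Gfap, Vim, Serpina3n, Lcn2, Cd109, Osmr, S1pr3 and Aspg. None was lower. Across all 12713 genes tested in astrocytes, 18.5% were called higher and 15.6% lower at an adjusted p under 0.05. Aqp4 was not called, and Steap4 had too few UMIs to be tested. The libraries of the 2 groups did not overlap for any of the 10 genes, which was also true of 49.4% of all genes tested. The median log2 fold change of the 9 tested genes, 3 of which entered the test through the transgenic libraries, was 5.09, beside 0.0 over all genes. Each of the 8 calls held in all 24 alternative analyses, which included leaving out each library in turn, and so did those on the Clec7a-KO background given next. Lcn2, Osmr and S1pr3 passed the filter on low counts only through the transgenic libraries (at least 4.88 CPM in 3 libraries), so they had to be higher there to be tested at all; their calls are a description and their p-values are not given. Of all genes, 1225 entered in this way. The 6 members that would have passed on the libraries without the transgene alone were Gfap, Vim, Serpina3n, Cd109, Aspg and Aqp4, and the first 5 of these were called higher, where 14.9% of the 11488 such genes were. On the Clec7a-KO background the same 8 genes were called higher in SOD1G93A/Clec7a-KO than in Clec7a-KO and none lower, against 17.6% and 14.6% of all genes. The groups of this comparison did not overlap for 7 of the 10 genes, against 25.3% of all genes tested.

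**Figure D1:**
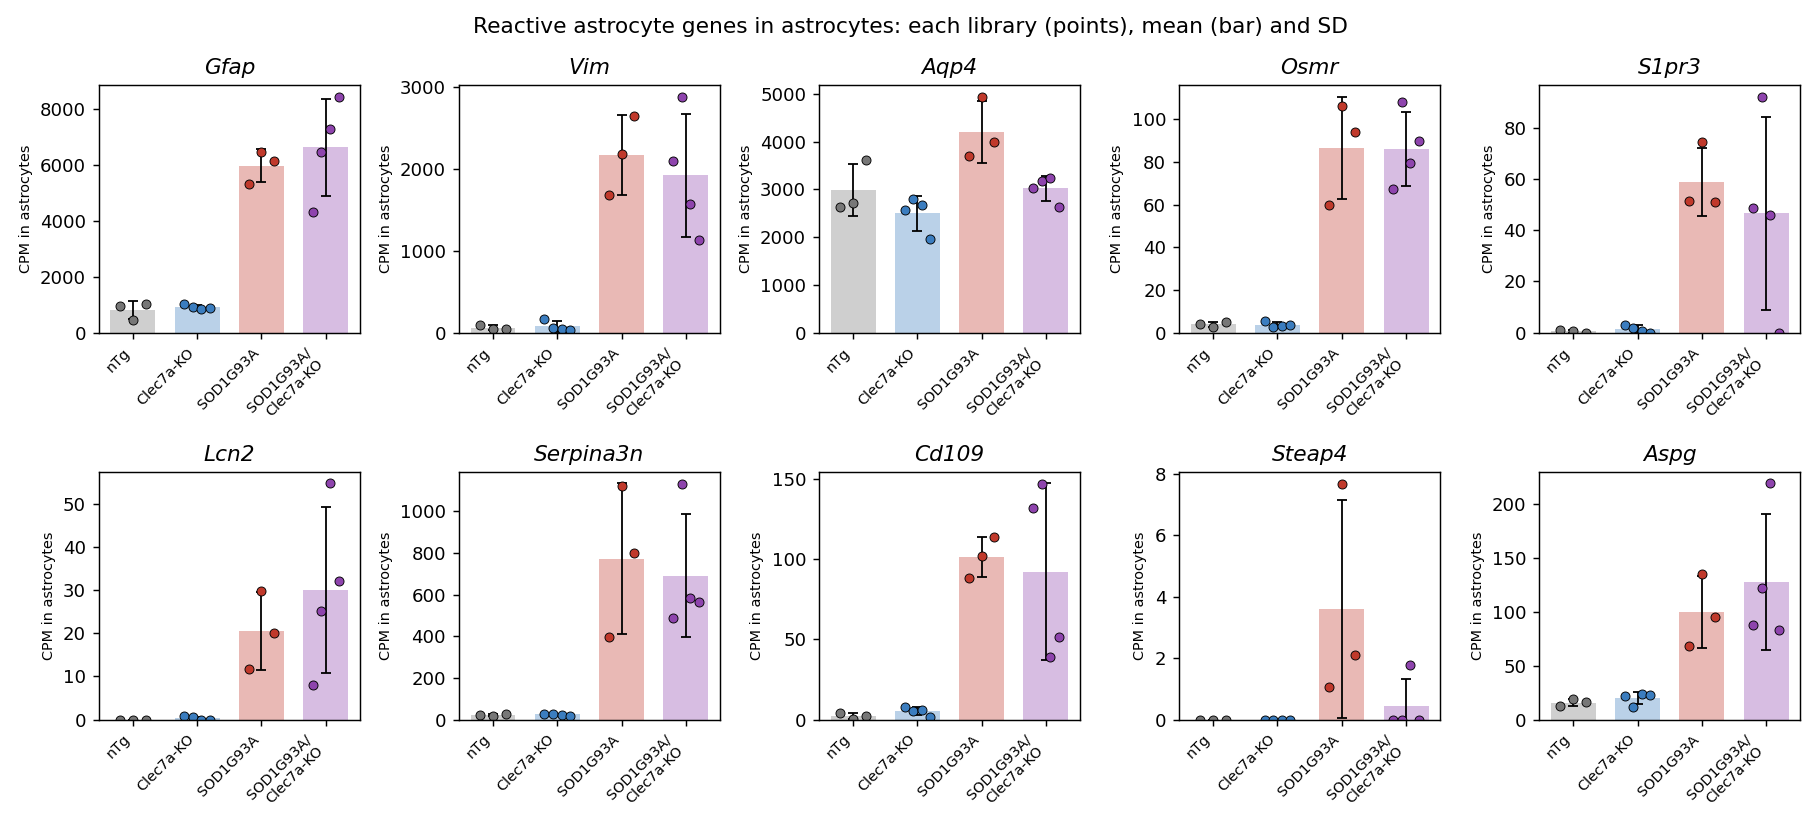
Level of each of the 10 genes in astrocytes, in CPM (UMIs per 1000000 UMIs of the class, vertical axis, one panel per gene), for the 4 groups. Points are libraries, bars the group mean and error bars the SD. The 3 SOD1G93A libraries lie above the 3 nTg libraries in every panel, while SOD1G93A and SOD1G93A/Clec7a-KO overlap in all panels but that of Aqp4.

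Gfap encodes the main intermediate filament of astrocytes. Its level was 5300, 6460 and 6150 CPM in the 3 SOD1G93A libraries and 955, 446 and 1020 CPM in nTg. The lowest transgenic library was thus above the highest nTg library. In SOD1G93A/Clec7a-KO it was 4330, 6470, 7270 and 8430 CPM, and in Clec7a-KO 1040, 918, 847 and 892 CPM. Both transgenic groups were high in all of their libraries, and both groups without the transgene were low. The fitted difference was 7.41-fold in SOD1G93A against nTg (log2 2.89, SE 0.29, adjusted p = 8.66e-07) and 7.15-fold on the Clec7a-KO background (log2 2.84, SE 0.25, adjusted p = 1.64e-07). Keeping only cells with at most 5% mitochondrial UMIs left 1038 astrocytes, from 9 to 216 per library. In these cells the log2 differences were 1.69 and 1.93 and were still called.

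Vim encodes vimentin, the filament protein of immature and reactive astrocytes. Its level was 1680, 2180 and 2650 CPM in SOD1G93A astrocytes and 98.8, 43.9 and 48.4 CPM in nTg. Every transgenic library was far above every nTg library. The level was 2100, 2880, 1570 and 1130 CPM in SOD1G93A/Clec7a-KO and 172, 54.3, 45.4 and 37.2 CPM in Clec7a-KO, where replicate 1 stood above the other 3. The difference was 34.0-fold without the knockout (log2 5.09, SE 0.53, adjusted p = 1.04e-06) and 24.3-fold with it (log2 4.60, SE 0.45, adjusted p = 4.56e-07). The log2 difference with the knockout was 5.39 without Clec7a-KO replicate 1, and in the cells with at most 5% mitochondrial UMIs the values were 3.96 and 3.30.

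Aqp4 encodes the water channel of astrocyte end-feet. Its level was 3690, 4940 and 4000 CPM in SOD1G93A and 2640, 2710 and 3620 CPM in nTg. The groups were separated only by the small gap between 3620 and 3690 CPM. The level was 3020, 3170, 3250 and 2640 CPM in SOD1G93A/Clec7a-KO and 2580, 2790, 2670 and 1960 CPM in Clec7a-KO, so these groups overlapped. The difference was 1.41-fold in SOD1G93A against nTg (log2 0.49, SE 0.21, adjusted p = 0.0737) and log2 0.27 on the Clec7a-KO background (adjusted p = 0.269), neither of them called. DESeq2 (log2 0.47, adjusted p = 0.0248) and the fit with a replicate block (log2 0.50, adjusted p = 0.0468) called the first.

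Osmr encodes the signalling subunit of the oncostatin M receptor, which pairs with gp130 and activates STAT3. Its level was 59.8, 106 and 93.9 CPM in SOD1G93A and 4.26, 2.76 and 4.98 CPM in nTg. No nTg library came near the lowest transgenic one. It was 67.2, 108, 79.5 and 89.8 CPM in SOD1G93A/Clec7a-KO and 5.74, 2.51, 3.13 and 3.63 CPM in Clec7a-KO. The transgenic groups covered the same range as each other. The fitted difference was 21.2-fold (log2 4.41, SE 0.28), and 19.9-fold on the knockout background (log2 4.32, SE 0.28). In the cells with at most 5% mitochondrial UMIs it was log2 3.59 and 3.25.

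S1pr3 encodes a G protein-coupled receptor for the lipid sphingosine-1-phosphate. It was at 51.2, 74.2 and 50.9 CPM in SOD1G93A astrocytes (48, 87 and 122 UMIs) and at 1.14, 0.614 and 0 CPM in nTg (4, 2 and 0 UMIs). In Clec7a-KO it was at 3.15, 2.01, 0.784 and 0 CPM. In SOD1G93A/Clec7a-KO it was at 48.7, 92.0 and 45.9 CPM, with no UMI in replicate 4, the library of 36 astrocytes. That library overlaps the controls, and the other transgenic libraries do not. The fitted log2 difference was 6.59 (SE 0.60) and on the knockout background 4.75 (SE 0.48). Its size varied between the alternatives, and the controls held few UMIs. The first value was 7.47 without nTg replicate 1, 5.95 without nTg replicate 3 and 5.51 with the Xist covariate. It was 5.12 without doublet removal and 5.49 in the cells with at most 5% mitochondrial UMIs. The second was 5.63 without Clec7a-KO replicate 1 and 2.99 in those cells.

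Serpina3n encodes a secreted inhibitor of serine proteases and is an acute-phase gene. It stood at 398, 1120 and 799 CPM in SOD1G93A and at 24.1, 17.5 and 24.7 CPM in nTg. It stood at 488, 1130, 584 and 564 CPM in SOD1G93A/Clec7a-KO and at 27.2, 29.1, 22.7 and 19.1 CPM in Clec7a-KO. Each transgenic group held 1 library above 1000 CPM, and every transgenic library was far above every library without the transgene. The difference was 34.8-fold (log2 5.12, SE 0.38, adjusted p = 1.66e-08) and 27.8-fold on the knockout background (log2 4.80, SE 0.33, adjusted p = 4.94e-09). It was log2 4.03 for the first in the cells with at most 5% mitochondrial UMIs.

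Lcn2 encodes lipocalin-2, a secreted protein that binds iron-carrying siderophores. Its level was 11.7, 29.8 and 20.0 CPM in SOD1G93A astrocytes (11, 35 and 48 UMIs), and no UMI was found in nTg. Taken over the group, the 94 UMIs of SOD1G93A were at 20.6 CPM, and the limit that 3 UMIs set in nTg was 0.278 CPM, so Lcn2 was at least 74.1-fold higher, as a description. It was at 8.04, 25.2, 54.7 and 32.1 CPM in SOD1G93A/Clec7a-KO (17, 20, 31 and 5 UMIs) and at 0.74, 0.503, 0 and 0 CPM in Clec7a-KO (4, 1, 0 and 0 UMIs). It was detected in every transgenic library and in 2 of the 7 others. On the knockout background the fitted log2 difference was 5.71 (SE 0.73). It was 6.74 without Clec7a-KO replicate 1 and 5.08 without SOD1G93A/Clec7a-KO replicate 3. Neutrophil markers in the astrocytes summed to 3.34 to 21.1 CPM in SOD1G93A and 1.72 to 3.39 CPM in nTg, with up to 9 of the 10 markers at 0. Lcn2 is itself abundant in neutrophils, and their part in the result was not tested.

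Cd109 encodes a surface protein that is anchored in the membrane by a lipid and binds TGF-beta. It was at 88.6, 102 and 114 CPM in SOD1G93A and 4.26, 0.614 and 2.13 CPM in nTg. It was at 132, 147, 38.8 and 51.3 CPM in SOD1G93A/Clec7a-KO and 8.14, 5.53, 5.88 and 1.82 CPM in Clec7a-KO. The double-altered libraries spread more widely than the SOD1G93A ones and stayed above all controls. The difference was 42.4-fold (log2 5.41, SE 0.46, adjusted p = 1.13e-07) and 16.6-fold on the knockout background (log2 4.05, SE 0.38, adjusted p = 2.99e-07). The first log2 value was 6.07 without nTg replicate 1, 4.79 in the fit that adds the library number and 4.13 in the cells with at most 5% mitochondrial UMIs, where the second was 2.82.

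Steap4 encodes a metalloreductase that reduces iron and copper. It held 1, 9 and 5 UMIs in SOD1G93A astrocytes (1.07, 7.67 and 2.09 CPM), 1 UMI in SOD1G93A/Clec7a-KO and none in nTg and Clec7a-KO. This is sparse, and the gene was too low to enter the test. Over the group, the 15 UMIs of SOD1G93A gave a level of 3.29 CPM, at least 11.8-fold above the limit that 3 UMIs set in nTg. Aspg encodes an asparaginase. It was at 68.3, 135 and 95.6 CPM in SOD1G93A and 12.5, 18.7 and 16.1 CPM in nTg. It was at 87.5, 122, 219 and 83.4 CPM in SOD1G93A/Clec7a-KO and 22.0, 12.1, 23.5 and 22.7 CPM in Clec7a-KO. All transgenic libraries stood above all others. The difference was 6.32-fold (log2 2.66, SE 0.32, adjusted p = 5.15e-06) and 6.42-fold on the knockout background (log2 2.68, SE 0.29, adjusted p = 1.46e-06), with log2 values of 1.34 and 1.79 in the cells with at most 5% mitochondrial UMIs.

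With the transgene present, astrocytes with and without Clec7a differed in none of the 9 tested genes. Between SOD1G93A/Clec7a-KO and SOD1G93A, edgeR called 0 of the 9 and 0.0236% of all genes, and DESeq2 called 0 of the members. Of the members Aqp4 alone had an unadjusted p under 0.05, beside 840 of the 12713 genes tested. Aqp4 was lower in the double-altered libraries by log2 -0.48, with an approximate 95% interval from -0.91 to -0.05 (edgeR, adjusted p = 0.701). Its groups did not overlap, which was also true of 5.81% of all genes. For the other genes the intervals included 0. They ran from -0.43 to 0.72 for Gfap, from -0.55 to 0.45 for Osmr, from -0.81 to 0.50 for Serpina3n, from -1.08 to 0.75 for Vim and from -0.71 to 0.74 for Cd109. They ran from -0.88 to 0.74 for S1pr3, from -0.26 to 1.02 for Aspg and, the widest, from -0.81 to 1.45 for Lcn2. Differences as large as these bounds cannot be told from none with these libraries.

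Without the transgene, Clec7a-KO and nTg astrocytes differed in none of the 9 tested genes, and 0% of all genes were called (286 of 12713 had an unadjusted p under 0.05). DESeq2 called 0 of the members. The estimate for Gfap was log2 0.20 (interval -0.38 to 0.77) and that for Osmr 0.04 (-0.76 to 0.83). The largest estimates belonged to genes with few UMIs in these groups, Lcn2 at 3.11 (-0.73 to 6.94) and S1pr3 at 1.77 (-0.32 to 3.86), whose intervals leave room for large differences. Cd109 was higher in Clec7a-KO by log2 1.37 (interval 0.12 to 2.61, edgeR adjusted p = 1), and it was called when the filter on low counts was left out (log2 1.36, adjusted p = 0.0421). The difference between the transgene effects with and without Clec7a was tested as a contrast of its own. It was called for 0 of the 9 tested genes by edgeR and 0 by DESeq2, and for 0% of all genes (390 had an unadjusted p under 0.05). It was log2 -0.05 for Gfap (interval -0.86 to 0.76), -0.09 for Osmr (-1.04 to 0.86), -0.32 for Serpina3n (-1.32 to 0.67), 0.02 for Aspg (-0.98 to 1.02), -0.22 for Aqp4 (-0.84 to 0.39) and -0.49 for Vim (-1.81 to 0.84). It was farthest from 0 for Lcn2 (-2.78, -6.59 to 1.03) and S1pr3 (-1.84, -4.08 to 0.40), so a smaller transgene effect without Clec7a is within the intervals of these genes. Of the tested genes Cd109 had the smallest p (log2 -1.35, interval -2.8 to 0.09, edgeR adjusted p = 1).

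Some properties of the astrocyte cells moved with the transgene. Astrocytes made up 2.81% to 5.66% of the cells in SOD1G93A and 1.39% to 4.54% in SOD1G93A/Clec7a-KO, against 8.15% to 17.9% in nTg and 5.47% to 13.7% in Clec7a-KO. Their median depth was 2689 to 5049.5 UMIs in SOD1G93A against 5130 to 6272 in nTg. In astrocytes of SOD1G93A/Clec7a-KO it was 2364 to 3934.5 against 2796 to 6684.5 in those of Clec7a-KO, which overlapped. Their median mitochondrial share was 7.97% to 9.01% in SOD1G93A against 9.06% to 10.1% in nTg, and 4.44% to 7.93% in SOD1G93A/Clec7a-KO against 8.1% to 10.8% in Clec7a-KO, with no overlap in either comparison, and its part in the results was not tested beyond the values for cells with at most 5% given above. The 12 astrocyte markers summed to 19000 to 24400 CPM in SOD1G93A and to 30100 to 33300 CPM in nTg. The 12 microglia markers summed to 852, 2450 and 5000 CPM (lowest, median and highest library) in SOD1G93A astrocytes and to 180, 262 and 267 CPM in nTg, with none of them at 0. In SOD1G93A/Clec7a-KO astrocytes the 6 erythrocyte markers had a median of 6.775 CPM and reached 4970 CPM. The microglia markers summed there to 2200, 5200 and 6720 CPM, and to 258, 335.5 and 515 CPM in Clec7a-KO. Their median in microglia themselves was 43100 CPM in SOD1G93A. Markers of other classes were also higher in SOD1G93A astrocytes, with no overlap: the 12 ependymal markers summed to 234 to 304 CPM against 89.3 to 99.7 in nTg (up to 5 at 0 in a library), the 10 mural ones to 214 to 371 against 79.2 to 130 (up to 3 at 0), the 8 monocyte ones to 83.2 to 194 against 13.8 to 25.9 (up to 6 at 0) and the 10 of border-associated macrophages to 6.21 to 20.8 against 2.01 to 3.63 (up to 7 at 0). Ependymal and mural cells are classes that carry much Vim, Cd109, S1pr3 or Steap4. Markers of oligodendrocyte precursors (1410 to 1720 against 2720 to 2990 CPM) and of neurons (119 to 135 against 188 to 215 CPM) were lower. For each of the 10 genes, the mean level in SOD1G93A microglia was below that in SOD1G93A astrocytes. The part that RNA of microglia or of these other classes has in the size of the differences was not tested.

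The share of cells with at least 1 UMI was compared after each cell was thinned to 2000 UMIs, which left out 27.8% of SOD1G93A and 10.7% of nTg astrocytes. Gfap was then found in 96.0% ± 1.54 (SD, n = 3) of SOD1G93A astrocytes and 39.1% ± 7.71 (n = 3) of nTg astrocytes, and without thinning in 97.8% and 59.4%. Vim was found in 56.5% ± 11.6 against 5.77% ± 1.70 (unthinned 68.8% and 12.2%). Serpina3n was found in 49.4% ± 16.5 against 4.53% ± 1.13 (unthinned 59.1% and 10.8%). A UMI of Gfap was thus found in nearly all thinned SOD1G93A astrocytes, and one of Vim or of Serpina3n in a large part of them. No reference share is given below for Vim, which SOD1G93A microglia also carried. The receptors and Cd109 were captured in fewer cells: Osmr in 12.7% ± 2.75 against 0.902% ± 0.456, Cd109 in 12.5% ± 0.874 against 0.554% ± 0.336, and S1pr3 in 8.40% ± 3.30 against 0.126% ± 0.218. Their unthinned shares in SOD1G93A were 24.9%, 22.5% and 14.6%. Aspg was found in 16.3% ± 6.57 against 3.60% ± 1.17. Lcn2 was found in 1.65% ± 0.957 of SOD1G93A astrocytes and in none of the nTg ones.

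Free RNA can place a UMI in a cell that does not express the gene, so the same thinned shares were read in SOD1G93A microglia, which should lack most of these genes. They were 6.28% for Gfap, 0.473% for Serpina3n, 0.0747% for Osmr, 0.0378% for Cd109, 0.0338% for S1pr3, 0.0378% for Lcn2 and 0.0306% for Aspg. The astrocyte shares stood above them for every one of these 7 genes. Before thinning, SOD1G93A microglia were deeper than astrocytes, with medians of 8884 to 21648 UMIs per library against 2689 to 5049.5. Thinning can therefore lower the share of free RNA more in microglia. The part of free RNA in the astrocyte shares was not tested. The shares in SOD1G93A/Clec7a-KO astrocytes were 97.0% for Gfap, 51.7% for Serpina3n and 16.2% for Osmr, and in Clec7a-KO they were 44.3%, 3.94% and 0.607%. Of the 7 genes other than Gfap, Vim and Aqp4, at least 2 were found together in 19.5%, 39.4% and 26.7% of the astrocytes in the 3 SOD1G93A libraries, and in 23.7%, 45.9%, 26.2% and 24.0% in SOD1G93A/Clec7a-KO. No library without the transgene exceeded 1.11%. In ependymal cells of SOD1G93A the share was 1.17% to 1.87%.

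The 3 libraries without the transgene whose astrocytes fell mostly in cluster 18 also held a small number of cells in cluster 17, namely 98 in nTg replicate 1, 75 in nTg replicate 3 and 63 in Clec7a-KO replicate 3. Gfap in these cells was at 4570, 5570 and 5220 CPM, near its level in SOD1G93A, whereas in the cluster 18 cells of the same libraries it was at 408, 568 and 358 CPM. Vim was at 632, 398 and 366 CPM in the first set and at 17.6, 13.3 and 9.30 CPM in the second. In these few control cells Gfap and Aqp4 (4330, 5380 and 3510 CPM, beside 3640, 4830 and 3970 CPM in cluster 17 of SOD1G93A) stood near the level of SOD1G93A astrocytes, and the other 8 genes stood below that level. Against SOD1G93A/Clec7a-KO this was not so for Cd109, at 38.1 CPM in cluster 17 of its replicate 3, nor for Steap4 and S1pr3, which had no UMI there in 3 and 1 of its 4 libraries. Vim in cluster 17 of SOD1G93A was at 2140 ± 485 CPM. Aspg was at 27.8, 23.2 and 50.1 CPM in the control cells, beside 98.1 ± 32.4 CPM, S1pr3 at 4.28, 0 and 3.85 CPM, beside 57.9 ± 12.7 CPM, and Steap4 at 0. Serpina3n was at 38.6, 72.3 and 73.2 CPM there, beside 762 ± 355 CPM in cluster 17 of SOD1G93A, and Lcn2 had no UMI. Osmr was at 17.1, 23.2 and 15.4 CPM, beside 85.1 ± 23.1 CPM, and Cd109 at 32.1, 23.2 and 50.1 CPM, beside 100 ± 13.3 CPM. In the other control libraries nearly all astrocytes lay in cluster 17, with Gfap at 456 CPM in nTg replicate 2 and at 1050, 905 and 885 CPM in Clec7a-KO. The level of Gfap in cluster 17 thus differed between control libraries, and no test was made between clusters, since they were drawn from the same cells.

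**Figure D2:**
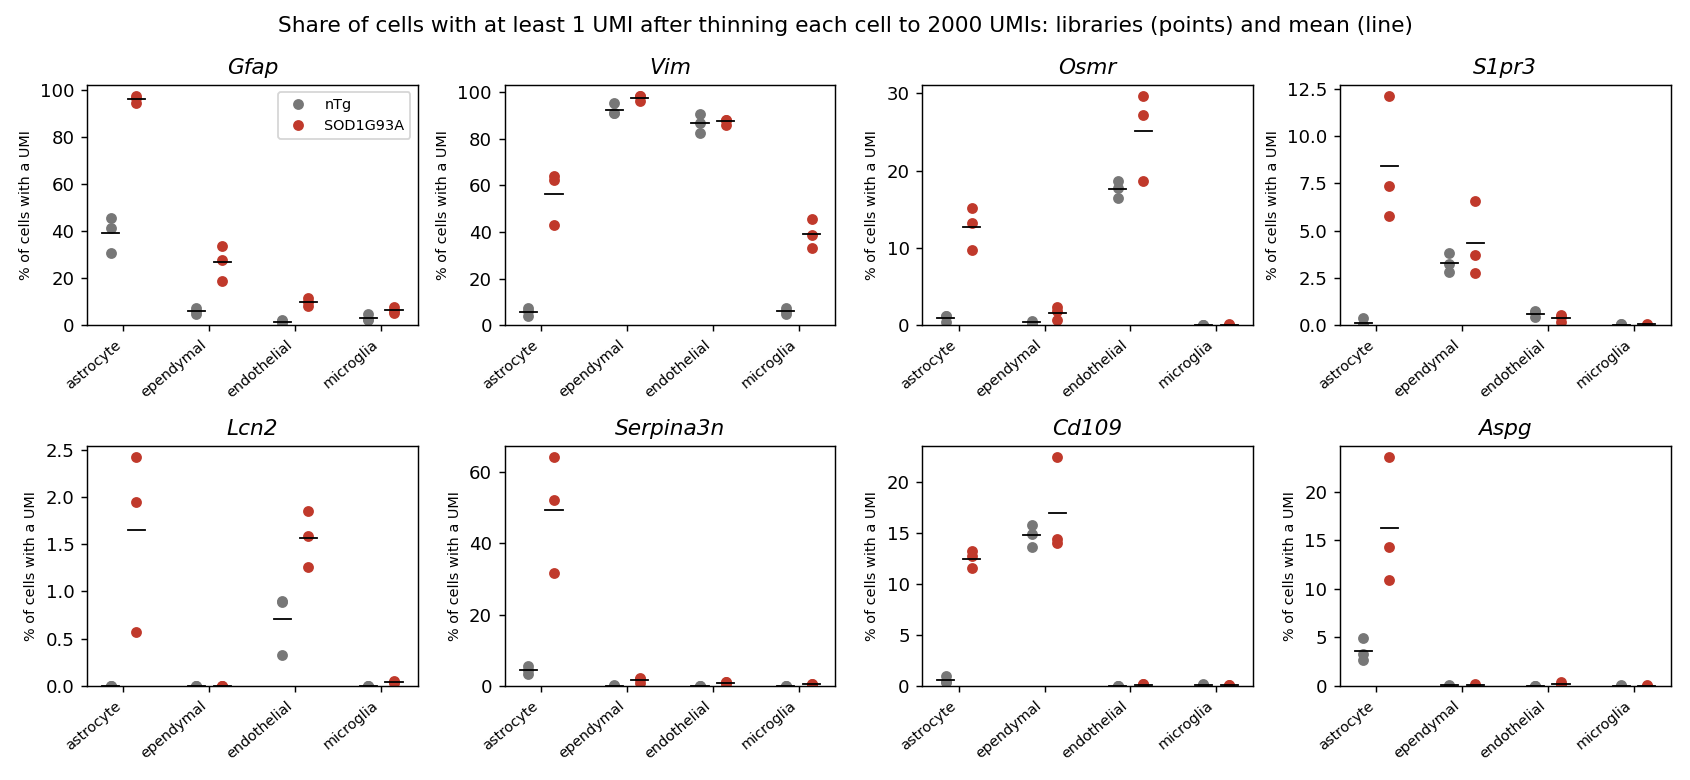
Percent of cells with at least 1 UMI of 8 of the genes after thinning each cell to 2000 UMIs (vertical axis), in 4 classes, for nTg and SOD1G93A. Points are libraries. Gfap reaches 94.3% to 97.3% of SOD1G93A astrocytes, while Osmr, Cd109 and S1pr3 stay between 5.75% and 15.2% there.

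The classes that carried these genes in the healthy cord were not always astrocytes. The classes come from clustering these cells, so levels of one class against another are described without a test. Means were taken only over libraries with enough cells of a class, so fibroblasts, with 17, 8 and 6 cells in nTg, were not ranked. In nTg, Gfap, Aqp4, Aspg and Serpina3n had their highest mean level in astrocytes, at 807 ± 314, 2990 ± 547, 15.8 ± 3.11 and 22.1 ± 3.99 CPM (SD, n = 3). The neighbour of Serpina3n was oligodendrocyte precursors (14.5 ± 0.643 CPM), and that of Aqp4 was ependymal cells (311 ± 66.4 CPM), neither range touching that of astrocytes. Vim and Cd109 were highest in ependymal cells, at 1670 ± 176 and 78.5 ± 4.69 CPM. Vim followed in endothelial cells at 1330 ± 257 CPM, a lower mean whose SD range overlapped the ependymal one. Osmr was highest in endothelial cells (117 ± 2.65 CPM) and in a cluster with both endothelial and mural markers (114 ± 10.7 CPM), which did not differ beyond their spread. S1pr3 and Steap4 were highest in mural cells, the contractile cells of vessel walls, at 405 ± 30.0 and 14.8 ± 4.01 CPM. Lcn2 was at 7.44 ± 4.91 CPM in endothelial cells, and 64.3% of its 771 UMIs in nTg came from only 8 neutrophils.

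**Figure D3:**
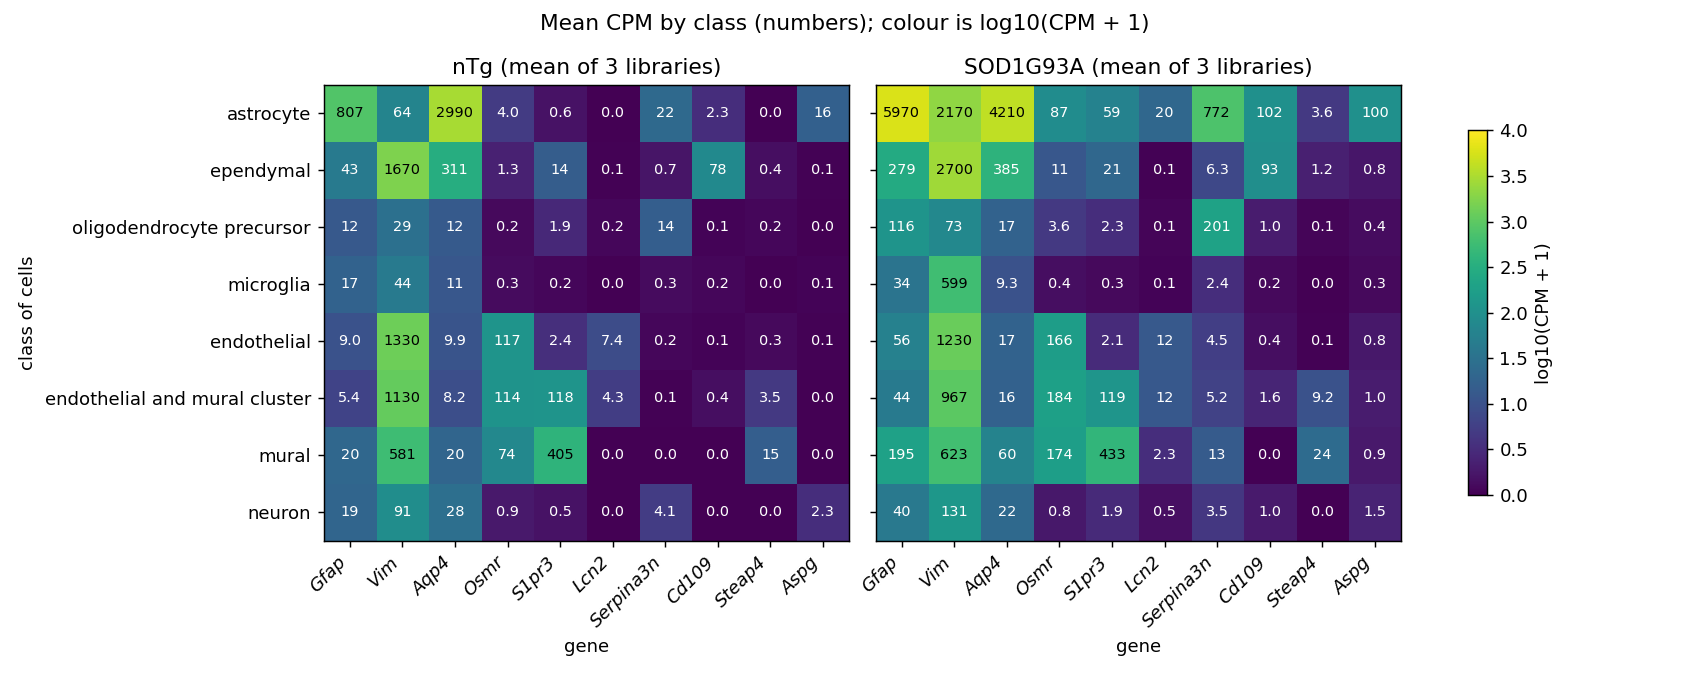
Mean CPM of the 10 genes (columns) in 8 cell classes (rows) in nTg and in SOD1G93A; the printed numbers are CPM and the colour shows log10(CPM + 1). In nTg, Vim and Cd109 peak in ependymal cells and Osmr, S1pr3 and Steap4 in vascular classes. The mean in the astrocyte row is higher in SOD1G93A for each gene, though Aqp4 was not called and Steap4 was not tested.

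With the transgene, the distance between astrocytes and the class with the highest healthy level differed from gene to gene. Vim stood at 2170 ± 485 CPM in SOD1G93A astrocytes beside 2700 ± 282 CPM in ependymal cells, and Cd109 at 102 ± 12.7 beside 92.9 ± 9.0 CPM. For both genes the ranges of the 2 classes overlapped. Within each SOD1G93A library Vim was higher in ependymal cells than in astrocytes, while for Cd109 the order varied between libraries. Osmr in SOD1G93A astrocytes (86.6 ± 24.0 CPM) was below its mean in endothelial cells (166 ± 59.0 CPM). S1pr3 (58.8 ± 13.4 CPM) remained far below its level in mural cells (433 ± 72.9 CPM), and Steap4, at 1.07 to 7.67 CPM in astrocytes, lay below its 17.3 to 31.2 CPM there. Lcn2 was at 20.5 ± 9.06 CPM in astrocytes beside 12 ± 5.12 CPM in endothelial cells. Neutrophils could be summed in 2 Clec7a-KO libraries alone and held 9100 ± 226 CPM of Lcn2.

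The share of a gene's UMIs that astrocytes supplied depends on both their level and their number. Of all Cd109 UMIs, astrocytes gave 0.762% in nTg and 29.1% in SOD1G93A, and ependymal cells 98.6% and 65.3%. Of all Osmr UMIs they gave 0.735% and 6.88%, while endothelial cells gave 60.2% and 51.1%. Vascular cells thus held most of the Osmr RNA in both groups. Of all S1pr3 UMIs, astrocytes gave 11.2% in SOD1G93A. They gave 71.2% and 66.3% of Gfap, and 53.6% and 58.9% of Serpina3n. For Vim the largest share moved from ependymal cells (51.0% in nTg) to microglia (62.9% in SOD1G93A), with astrocytes at 4.91%. Microglia numbered 15629 cells in SOD1G93A and 5879 in nTg after the same filters.

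Ependymal cells showed a smaller set of these changes. Gfap, Serpina3n and Osmr were called higher in SOD1G93A than in nTg, 3 of the 10 genes, against 0.723% of the 15361 genes tested. The same 3 were called on the Clec7a-KO background, where 1.26% of all genes were called higher. Serpina3n and Osmr passed the filter on low counts only through the transgenic libraries, so their calls are a description and their p-values are not given, and Gfap is the 1 called gene that would have passed on the others alone. The other 4 tested genes were called in neither comparison, and Lcn2, Steap4 and Aspg were too low to be tested. The median log2 fold change of the 7 tested genes was 0.69 in the first comparison and 0.51 in the second, beside -0.02 and -0.03 over all genes.

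Gfap in ependymal cells was at 172, 307 and 359 CPM in SOD1G93A and 39.7, 32.2 and 58.2 CPM in nTg. In SOD1G93A/Clec7a-KO it was at 198, 258, 298 and 74.9 CPM, and in Clec7a-KO at 37.8, 55.8, 69.0 and 69.3 CPM. The transgenic libraries were all higher, and replicate 4 of the double-altered group, with 28 cells, was the nearest to the controls. The difference was 6.55-fold (log2 2.71, SE 0.35, adjusted p = 0.000332) and 3.73-fold on the knockout background (log2 1.90, SE 0.30, adjusted p = 0.00193). The level itself stayed far below that in astrocytes. Astrocyte markers in ependymal cells summed to 1190 to 1400 CPM in SOD1G93A and 1170 to 1260 CPM in nTg, while in astrocytes themselves the same sum was lower in SOD1G93A and Gfap higher. Microglia markers there moved from 276 to 338 CPM in nTg to 632 to 1050 CPM in SOD1G93A. The part of RNA from astrocytes or microglia in the result was not tested.

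Serpina3n in ependymal cells was at 3.99, 6.45 and 8.42 CPM in SOD1G93A and 0.873, 0.376 and 0.861 CPM in nTg. It was at 3.76, 6.16, 11 and 3.75 CPM in SOD1G93A/Clec7a-KO and at most 0.467 CPM in Clec7a-KO. All transgenic libraries were above all others, but the lowest of these levels rest on very few UMIs. SOD1G93A replicate 1 held 736922 ependymal UMIs of all genes. SOD1G93A/Clec7a-KO replicate 4 held 254694 from 28 cells, so its values of Serpina3n here and of Osmr below rest on very few UMIs. The fitted difference was 9.33-fold (log2 3.22, SE 0.45) and 20.2-fold on the knockout background (log2 4.34, SE 0.50). After thinning 1.63% of SOD1G93A ependymal cells had a UMI beside 0.473% of microglia, with the limit on microglial depth given above. Osmr was at 13.3, 11.9 and 8.76 CPM in SOD1G93A and 1.82, 1.22 and 0.984 CPM in nTg, a fitted difference of 7.60-fold (log2 2.93, SE 0.36). On the knockout background it was at 3.64, 7.04, 4.23 and 3.75 CPM in SOD1G93A/Clec7a-KO and 0.934, 1.45, 2.19 and 0.93 CPM in Clec7a-KO. That difference was 3.25-fold (log2 1.70, SE 0.36), and log2 1.41 without SOD1G93A/Clec7a-KO replicate 2, 1.69 without Clec7a-KO replicate 2, 1.53 without Clec7a-KO replicate 4 and 1.56 with a replicate block, all below the threshold for a call.

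Vim, which ependymal cells carry at all times, was at 2380, 2790 and 2920 CPM in SOD1G93A and 1530, 1620 and 1870 CPM in nTg. The groups did not overlap, but the difference of 1.61-fold was not called by edgeR (log2 0.69, SE 0.19, adjusted p = 0.135). It was called by DESeq2 (adjusted p = 0.000163) and in the fit that adds the library number (log2 0.77, adjusted p = 0.0453). Cd109 was at 99.7, 82.7 and 96.3 CPM in SOD1G93A and 73.1, 80.5 and 81.8 CPM in nTg, a difference of log2 0.23 with an interval from -0.15 to 0.62. S1pr3 was at 27.9, 20.1 and 15 CPM against 12.5, 15.7 and 14.5 CPM (log2 0.45, interval -0.17 to 1.06), with overlapping groups. Aqp4 was at 215, 517 and 424 CPM against 263, 387 and 284 CPM (log2 0.32, interval -0.23 to 0.87), which also overlapped.

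Within ependymal cells, groups with and without Clec7a again differed in none of the 7 tested genes. Between SOD1G93A/Clec7a-KO and SOD1G93A, edgeR and DESeq2 called 0 of them, and edgeR called 0.0325% of all genes. Osmr was lower in the double-altered libraries by log2 -1.19 (interval -1.96 to -0.42, edgeR adjusted p = 0.578), with groups that did not overlap, and Aqp4 by -0.67 (interval -1.18 to -0.15, adjusted p = 0.596). These 2 were the members with an unadjusted p under 0.05, beside 1262 of the 15361 genes tested. The groups did not overlap for 7.99% of all genes. Between Clec7a-KO and nTg, 0 of the 7 were called by either tool and 0 had an unadjusted p under 0.05, and 0.026% of all genes were called by edgeR. Of all genes, 289 had an unadjusted p under 0.05, and 3.32% had groups that did not overlap. Vim did not overlap between these groups (1930 to 2290 CPM in Clec7a-KO, 1530 to 1870 CPM in nTg, log2 0.33, interval -0.05 to 0.72), and the widest interval was that of Serpina3n (log2 -1.18, -2.47 to 0.12).

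The transgene effect in astrocytes was then set against that in ependymal cells of the same libraries, in 1 fit with the library as a block. The effect was larger in astrocytes for Vim, Serpina3n, Lcn2, Cd109, Osmr and S1pr3, 6 of the 10 genes, where 10.3% of 15578 genes were called in that direction. In this fit every one of these but Lcn2 would have passed the filter on low counts on the sums of libraries without the transgene alone. The gap was log2 6.21 for S1pr3 (adjusted p = 1.67e-10), 5.14 for Cd109 (adjusted p = 8.01e-12) and 4.38 for Vim (adjusted p = 4.85e-10). Cd109 and Vim, which ependymal cells already carry, thus changed in astrocytes far beyond any change in ependymal cells. It was smaller for Serpina3n (log2 2.01, adjusted p = 0.00146) and Osmr (1.56, adjusted p = 0.00599). For Gfap the gap was log2 0.20 (adjusted p = 0.71), although its level differs so much between the classes, and for Aqp4 it was 0.16 (adjusted p = 0.677). Lcn2 had at most 1 UMI in any ependymal library of SOD1G93A or nTg, so its call is a description and its fitted size rests on the prior count. Aspg was too sparse in ependymal cells for its fit to be read.

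The calls for Serpina3n, Osmr and Lcn2 depended on single libraries. Serpina3n was at log2 1.81 without nTg replicate 1 (adjusted p = 0.065). Osmr was at 1.29 without SOD1G93A replicate 3 (adjusted p = 0.074) and at 1.29 without nTg replicate 1 (adjusted p = 0.0958). Lcn2 was not called without nTg replicate 2 or nTg replicate 3. With at most 5% mitochondrial UMIs, a limit that left from 18 to 1175 ependymal cells per library, none of these 3 was called. On the Clec7a-KO background, Vim (log2 4.26), Cd109 (4.03), Osmr (2.82), S1pr3 (4.32) and Lcn2 were called larger in astrocytes, 5 of the 10 genes, against 8.18% of all genes. Lcn2 again had hardly any UMI in ependymal cells (1 over SOD1G93A/Clec7a-KO and 11 over Clec7a-KO), so its size cannot be read. Serpina3n was not (log2 0.42, adjusted p = 0.814), nor was Gfap (0.77, adjusted p = 0.0513), though 11 of 20 alternatives called Gfap. Osmr lost its call with at most 5% mitochondrial UMIs (1.88, adjusted p = 0.164) and Lcn2 lost it without doublet removal.

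**Figure D4:**
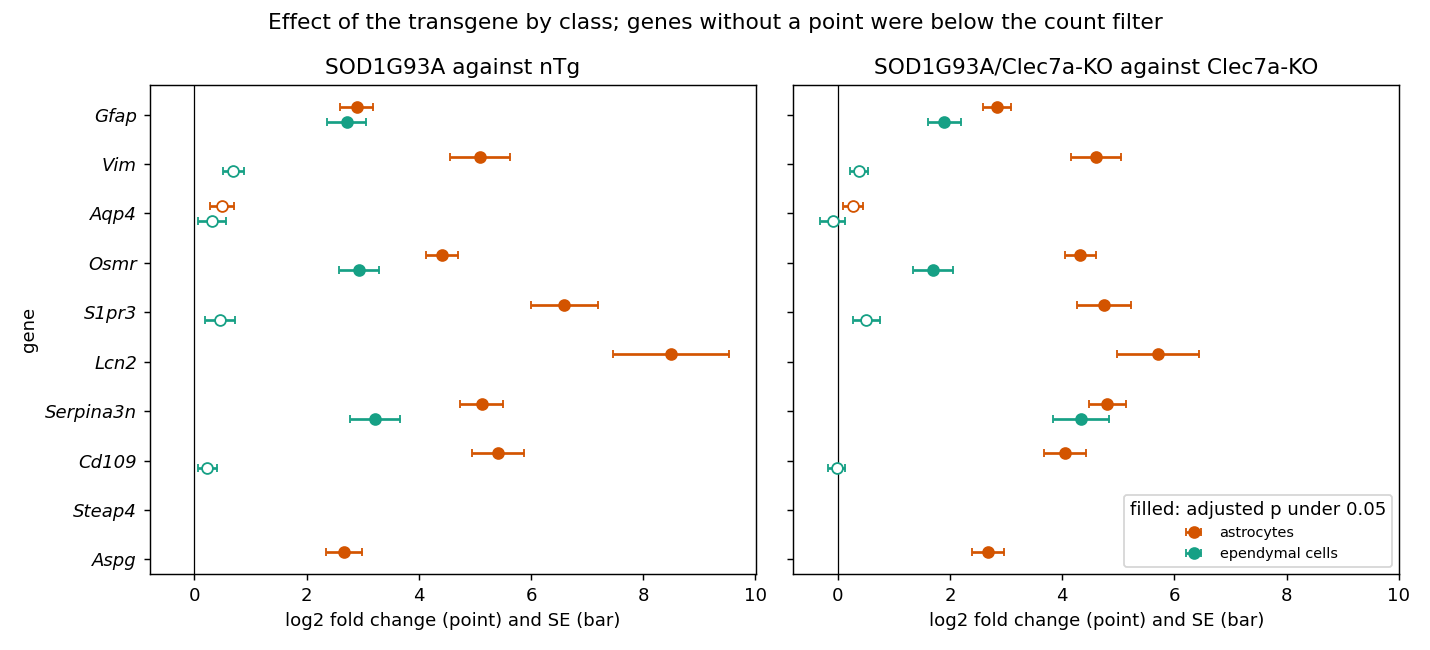
Log2 fold change (horizontal axis) with its SE for each gene in astrocytes and in ependymal cells, for SOD1G93A against nTg and for SOD1G93A/Clec7a-KO against Clec7a-KO. Filled points have an adjusted p under 0.05. Gfap has similar values in both classes (2.89 and 2.71 without the knockout), whereas Vim, Cd109 and S1pr3 are at 0.69 or less in ependymal cells and above 5 in astrocytes in that comparison.

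Of 4 further classes tested, each had at least 1 of the genes called. In oligodendrocyte precursors 3 of the 10 were called higher in SOD1G93A, against 1.16% of all genes: Serpina3n, Gfap and Vim. Serpina3n was at 89.5, 240 and 274 CPM against 13.8, 15 and 14.8 CPM in nTg, with no overlap (log2 3.79, SE 0.36, adjusted p = 1.14e-05). On the Clec7a-KO background it was at 146 ± 41.5 against 15 ± 3.69 CPM (log2 3.28, adjusted p = 1.25e-05). After thinning, 21.7% of SOD1G93A precursors had a Serpina3n UMI beside 0.473% of microglia, with the limit on microglial depth given above. Gfap was at 89.5, 108 and 150 CPM against 11.1, 2.35 and 22.9 CPM (log2 3.15, adjusted p = 0.00449), and with the Xist covariate its adjusted p was 0.0727. Of the other members in these precursors, Aqp4 was at 16.8 ± 5.63 against 12.5 ± 2.91 CPM and was not called. Osmr was higher by log2 3.76 (interval 1.6 to 5.91) and was not called. It passed the filter on low counts only through the transgenic libraries, so its value is a description. Lcn2, Cd109, S1pr3, Steap4 and Aspg were too low there to be tested, with Aspg at 0.355 ± 0.364 against 0 CPM. Vim was at 61.1, 78.0 and 80.7 CPM against 25.2, 31.0 and 31.4 CPM (log2 1.33, adjusted p = 0.0154). This call ended in each of 5 fits that left out SOD1G93A replicate 2 or 3 or any nTg library (adjusted p = 0.06 to 0.107) and with the Xist covariate (0.157). Both were called on the Clec7a-KO background as well, Vim at log2 1.52 (adjusted p = 0.00177) and Gfap at log2 3.14 (adjusted p = 0.00171).

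In microglia 5 of the 10 could be tested and 2 of these were called higher, against 18.8% of all genes tested there. Vim was at 424, 783 and 591 CPM in SOD1G93A and 46.0, 31.3 and 54.2 CPM in nTg, and the groups were far apart (log2 3.77, SE 0.35, adjusted p = 3.01e-06). On the knockout background the difference was log2 4.09 (adjusted p = 2.13e-07). Serpina3n was at 2.35 ± 0.581 against 0.293 ± 0.0935 CPM (log2 3.06, adjusted p = 0.00865), a level that lost its call with the Xist covariate (2.01, adjusted p = 0.104). Gfap in microglia was at 33.6 ± 9.04 against 17.1 ± 6.07 CPM and was not called (log2 0.97, adjusted p = 0.0681). The 12 astrocyte markers in microglia summed to 102 to 168 CPM in SOD1G93A and 236 to 367 CPM in nTg. In astrocytes themselves this sum was also lower in SOD1G93A, while Gfap was higher. The part of astrocyte RNA in the microglia values was not tested.

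In vascular classes the receptors were not called. Osmr was abundant in endothelial and mural cells, and S1pr3 in mural cells alone of these 2 classes. Osmr in endothelial cells was at 166 ± 59.0 against 117 ± 2.65 CPM (log2 0.50, adjusted p = 0.999). In mural cells it was at 93.5, 190 and 237 CPM against 76.1, 83.5 and 62.1 CPM, groups that did not overlap (log2 1.22, adjusted p = 0.113). S1pr3 in mural cells was at 433 ± 72.9 against 405 ± 30.0 CPM (log2 0.10, adjusted p = 0.999). In endothelial cells it was at only 1.68 to 2.57 CPM in SOD1G93A and 2.1 to 2.93 CPM in nTg. Gfap, a gene that vessels should lack, was called in endothelial cells, with Serpina3n, 2 of the 10 genes against 0.846% of all genes, and in mural cells as 1 of the 10 against 0.372%. In endothelial cells Gfap was at 61.9, 44.0 and 63.5 CPM against 14.7, 5.07 and 7.36 CPM (log2 2.61, adjusted p = 0.0276), and in mural cells at 159, 101 and 325 CPM against 23.1, 15 and 23.3 CPM (log2 3.22). The 12 astrocyte markers in endothelial cells summed to 353 to 383 CPM in SOD1G93A and 354 to 420 CPM in nTg. The 12 microglia markers there summed to 458 to 1220 against 123 to 146 CPM (none at 0) and the 8 monocyte markers to 1010 to 1330 against 663 to 885 CPM (up to 5 at 0), with no overlap. The part of RNA from other cells, free Gfap RNA included, was not tested. Gfap in mural and Serpina3n in endothelial cells passed the filter on low counts only through the transgenic libraries, so they are a description with no p. In endothelial cells Serpina3n was at 4.47 ± 2.53 against 0.182 ± 0.0347 CPM (log2 4.45), and its call ended in 8 of 24 alternatives. Neither of these 2 was called on the Clec7a-KO background (log2 2.12 for Gfap in mural cells and 3.06 for Serpina3n in endothelial cells, with overlapping groups), while Gfap in endothelial cells was (log2 2.16, adjusted p = 0.0294). The endothelial Gfap call ended in 8 of 24 alternatives, among them leaving out any of the 3 SOD1G93A libraries (adjusted p = 0.0656 to 0.084), nTg replicate 2 (0.162) or 3 (0.148). The mural one ended without nTg replicate 1 or 2, with the Xist covariate and without doublet removal.

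Other genes of the same biology were read in SOD1G93A against nTg astrocytes from lists of known genes. Their counts stand beside the 18.5% higher and 15.6% lower of all genes, and beside an all-gene median of 0.0. Genes that passed the filter on low counts only through the transgenic libraries had to be higher there, so each list is also given without them, beside 14.9% higher, 17.2% lower and a median of -0.06 for all such genes. Of 15 other genes reported for reactive astrocytes, 14 were in the files and tested, and all 14 were higher, with a median log2 of 3.25. Without Timp1, Cxcl10 and Nes, which entered through the transgenic libraries, 11 of 11 were higher (median 2.96). Timp1, an inhibitor of matrix proteases, was at 0.637 ± 0.729 CPM in nTg and 232 ± 81.4 CPM in SOD1G93A (log2 8.38, SE 0.59). The small heat shock protein gene Hspb1 was at 22.5 ± 9.19 and 1940 ± 360 CPM (log2 6.43). The chemokine gene Cxcl10 was at 3.40 ± 4.25 and 185 ± 152 CPM (log2 5.82), and Cebpd, a transcription factor gene of the acute phase, at 11.9 ± 4.91 and 340 ± 72.7 CPM (log2 4.84). Of the 11 genes reported for astrocytes reactive to neuroinflammation, 9 were higher and none lower (median log2 2.58), and 5 of 6 were higher (median 2.29) without Serping1, Gbp2, Ggta1, Iigp1 and Amigo2, which entered through the transgenic libraries. Among them were Serping1, an inhibitor of complement (3.85 to 92.8 CPM), the interferon-induced Gbp2 (2.25 to 34.4 CPM), Ggta1 (1.57 to 33.4 CPM) and Srgn (5.61 to 40.1 CPM). Of 11 genes reported after ischaemia, 8 were tested and all 8 were higher (median 4.34), but 5 of these entered through the transgenic libraries (Tgm1, Ptx3, Cd14, Clcf1 and Sphk1), and the remaining count was 3 of 3 (median 3.12), with Tm4sf1 at 10.4 ± 6.25 and 421 ± 16.1 CPM (log2 5.34). Ptx3 (log2 5.31) and Cd14 (log2 4.05) were also among them, and Tgm1 was at 0 in nTg and 35.4 ± 16.5 CPM in SOD1G93A. The called genes of these 3 lists thus all moved in the direction of the 8 called genes. The microglia marker sum of the astrocyte cells rose as well, as given above. The part of microglial RNA in these lists, Cd14 and Srgn included, was not tested.

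Genes of homeostatic astrocyte functions went the other way in part. Of 20 such genes, 9 were lower, 1 was higher and 10 were not called, with a median log2 of -0.51. The amino acid transporter gene Slc7a10 was at 1770 ± 378 CPM in nTg and 465 ± 70.1 in SOD1G93A (log2 -1.93, SE 0.40, adjusted p = 0.00112). Gpc5 was at 274 ± 33.0 and 89.0 ± 14.8 CPM (log2 -1.64), the GABA transporter gene Slc6a11 at 1720 ± 311 and 698 ± 151 CPM (log2 -1.30) and the gap junction gene Gjb6 at 876 ± 58.5 and 417 ± 33.0 CPM (log2 -1.07). Some of these 20 genes are also among the astrocyte markers that named the clusters.

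The pathway partners of the 2 receptors were mixed. Of the 20 genes of the gp130 and STAT3 pathway around Osmr, 16 were tested, 8 were higher and 2 lower (median 0.74). Without the 5 that entered through the transgenic libraries, Il6ra among them, 3 of 11 were higher and 2 lower (median 0.15). Il6ra, the interleukin-6 receptor chain, was at 1.57 ± 0.143 and 20.7 ± 6.58 CPM (log2 3.62), the feedback inhibitor Socs3 at 7.51 ± 1.95 and 59.4 ± 15.6 CPM (log2 2.96), and Stat3 itself at 49.8 ± 9.05 and 106 ± 9.71 CPM (log2 1.10, SE 0.18, adjusted p = 0.000141). Cntfr, the receptor chain for ciliary neurotrophic factor, was lower (391 ± 51.1 to 173 ± 33.4 CPM, log2 -1.18). Of the 10 genes of the sphingosine-1-phosphate pathway around S1pr3, 7 were tested, 2 were higher and 1 lower (median 0.31), or 1 and 1 of 5 (median 0.14) without the 2 that entered through the transgenic libraries. The lower one was S1pr1, the receptor that astrocytes carry in health, at 719 ± 79.1 CPM in nTg and 300 ± 31.5 CPM in SOD1G93A (log2 -1.26, SE 0.20, adjusted p = 8.24e-05). S1pr3 thus rose in astrocytes where S1pr1 fell. Sgpl1, the lyase that breaks down the ligand, was at 31.4 ± 2.38 and 71.7 ± 9.25 CPM (log2 1.17).

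Of 12 partners of the filament and end-foot proteins, 11 were tested, 5 were higher and 3 lower (median 0.04), or 3 and 3 of 9 (median -0.05) without Nes and Synm, which entered through the transgenic libraries. The filament gene Nes was at 2.86 ± 0.233 and 49.4 ± 26.9 CPM (log2 4.07), Synm at 5.64 ± 1.81 and 25.4 ± 4.20 CPM (log2 2.18), Lmna at 26.2 ± 1.02 and 79.4 ± 13.2 CPM (log2 1.61) and the linker gene Plec at 62.2 ± 21.7 and 159 ± 8.23 CPM (log2 1.35). Of 10 genes for signals that microglia are known to send to astrocytes, 9 were tested and all were higher in the astrocyte cells (median 4.08), of which 6, Il1b among them, entered through the transgenic libraries, and 3 of 3 were higher (median 4.78) without them. They included C1qa (23.3 ± 12 to 780 ± 707 CPM), C1qb, C1qc and Il1b (1.26 ± 0.291 to 23.1 ± 4.23 CPM), and 3 of these, C1qa, C1qb and C1qc, are microglia markers that define that class. These values move with the microglia marker sum given above. Of 19 genes of dissociation stress, 13 were higher and none lower (median 1.61), with Junb at 33.6 ± 13 and 203 ± 94.6 CPM (log2 2.58), Egr1 at 17.5 ± 3.92 and 111 ± 66.4 CPM (log2 2.65) and Ier3 and Atf3 at log2 2.81 and 2.42. The part of the warm enzymatic dissociation in the results was not tested.

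**Figure D5:**
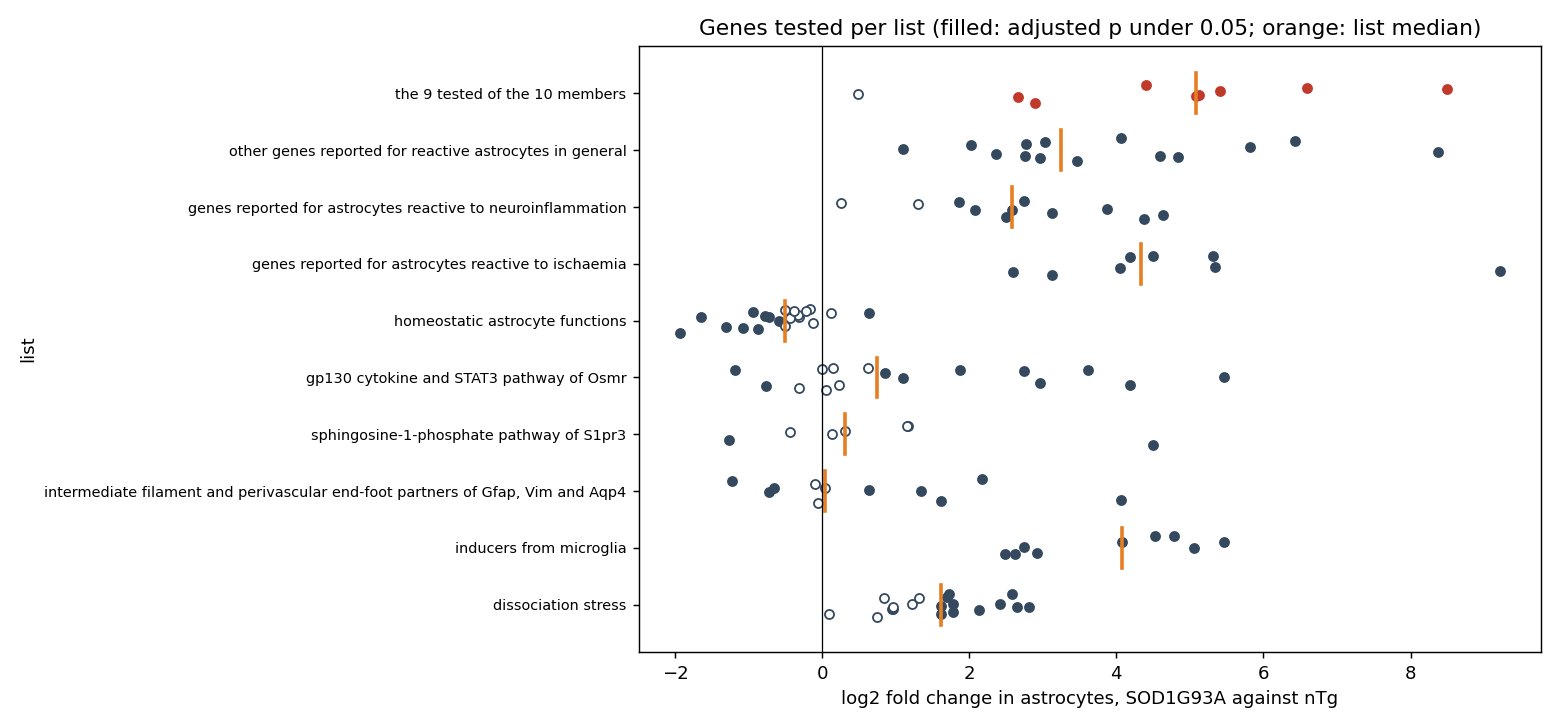
Log2 fold change in astrocytes of SOD1G93A against nTg (horizontal axis) for the tested genes of each list (rows), filled where the adjusted p is under 0.05, with the list median in orange. The reactive lists lie above 0, with medians of 3.25, 2.58 and 4.34, and the homeostatic list has a median of -0.51.

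On the Clec7a-KO background the same lists gave 14 higher of 14, 8 of 11, 8 of 8, and for homeostatic genes 1 higher and 12 lower of 20, with medians of 3.54, 2.09, 3.04 and -0.59 beside -0.03 over all genes. The gp130 and STAT3 list had 7 higher and 2 lower of 16 (median 0.81), the sphingosine-1-phosphate list 2 and 1 of 7 (0.83), the filament and end-foot list 5 and 3 of 11 (0.08), the microglial signals 8 and 0 of 9 (4.12) and the stress genes 15 and 0 of 19 (2.0), beside 17.6% higher and 14.6% lower of all genes. S1pr1 fell by 1.28 and Stat3 rose by 1.25 on the log2 scale. Without genes that entered through the transgenic libraries the first 3 lists had 11 of 11, 5 of 6 and 3 of 3 higher (medians 2.85, 2.07 and 2.79), the gp130 and STAT3 list 3 higher and 2 lower of 11 (0.29), the sphingosine-1-phosphate list 1 and 1 of 5 (0.15), the filament and end-foot list 3 and 3 of 9 (0.03) and the microglial signals 3 and 0 of 3 (4.34), beside 13.6% higher and 16.1% lower of all such genes. No homeostatic or stress gene had entered in this way. Over all tested genes of a list, the largest gap between the 2 backgrounds was in the median of the ischaemia list (4.34 and 3.04). Without the genes that entered through the transgenic libraries, its medians were 3.12 and 2.79. The microglial signals then had the largest gap (4.78 and 4.34). The lists' differences between backgrounds were not tested.

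Across the 14 astrocyte sums, the genes most like Osmr, Serpina3n and Cd109 were sought among 3404 or 3405 tested genes with a mean of at least 50 CPM. Osmr was most like Fcgr2b (Pearson r = 0.995), Timp1 (0.994) and Sod1 (0.994). Serpina3n was most like Ctsb (0.991), Fcgr2b (0.990) and Sod1 (0.989), and Cd109 was most like Ggt5 (0.994), Anxa2 (0.979) and Tmsb4x (0.977). Sod1 reads include those of the transgene, so the list reflects the split between transgenic and other libraries, and Fcgr2b and Ctsb are genes that microglia also carry. The points share the library, its depth and its share of other cells, and no p is given. These 3 members were chosen for the smallest p in SOD1G93A against nTg, which for Osmr has the limit of the filter given above.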

How the data were processed

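Per the labels' protocols, cords were dissociated with enzymes at 37°C and passed over beads that remove myelin before capture on the 10x Chromium system (3' chemistry). The deposited values were raw counts of UMIs per gene and barcode for 14 libraries, and the authors applied no normalization to them. Cell Ranger, Seurat, DESeq2 and the build mm10 are named in the submitters' processing notes, with no role or version. Columns of samples from elsewhere numbered 0.

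A barcode was kept if it had 500 or more genes, 1000 or more UMIs and no more than 15% mitochondrial UMIs. This removed 7127 for depth and 4963 for mitochondrial share, and 7027 more were removed as doublets by a score against 2.0 simulated doublets per cell, at 0.8% per 1000 barcodes. Cells were divided into 25 clusters by the Leiden method, on 30 components of the 2000 most variable genes other than the 10 members (resolution 1.0, 15 neighbours; scanpy 1.11.5 with scikit-learn 1.9.0 and igraph 0.11.9, Python 3.11.15). Clusters were named from lists of markers that hold no member and stand for "X-like" cells. Cluster 15 (3716 cells) had both endothelial and mural markers above a log2 fold of 5 and stayed unnamed. Cluster 6 (674 cells) mixed immune classes and was redivided after the data were seen.

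For each class, the UMIs of a library's cells were added up and fitted with edgeR 4.0.16 (R 4.3.3) after TMM scaling and filterByExpr. The 14 libraries entered 1 quasi-likelihood model of the 4 groups; tests were two-sided, with Benjamini-Hochberg adjustment over all genes tested and a threshold of 0.05. CPM of the tested classes use TMM-scaled totals. Plain totals were used for single clusters, marker sums, classes not tested, and levels over a whole group or over all barcodes. Values are mean ± SD over libraries. Intervals are the estimate ± the 95% t quantile at 10 degrees of freedom times the SE, an approximation. A level of 0 was bounded by 3 UMIs over the group, for counting error only. On simulated data for 12272 genes (SOD1G93A against nTg, astrocytes) the fit recovered 52% of changes of log2 1 and 94.9% of log2 2, with 2 false calls. Members and lists were chosen with earlier results of these data known. All members were named, and from each list at most 4 called genes with the largest change, a mean of at least 20 CPM in a group and no overlap between groups. Likeness was read on log2(CPM + 1).

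Alternatives were other size factors, no filter, DESeq2 1.42.0, a replicate block, covariates for library number and sex (from Xist), each library left out, Leiden resolution 0.5, members among the variable genes, no doublet removal, at most 5% mitochondrial UMIs, plain CPM and unthinned shares.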

Additional observations from a re-analysis of the deposited data

Results flagged for a closer look

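In 40 groups of 4 libraries (10 genes, 2 classes, 2 groups), 5 held a library whose gap to the nearest other, as a part of the group's range, was above Dixon's 95% critical value, where chance alone gives about 1 in 20. Vim in astrocytes of Clec7a-KO replicate 1 was at 172 CPM, while the other 3 libraries were at 37.2 to 54.3 CPM. Serpina3n in astrocytes of SOD1G93A/Clec7a-KO replicate 2 was at 1130 CPM, with the others at 488 to 584 CPM. Aspg in astrocytes of Clec7a-KO replicate 2 was at 12.1 CPM, below 22.0 to 23.5 CPM. Steap4 in astrocytes of SOD1G93A/Clec7a-KO replicate 3 was at 1.77 CPM, from 1 UMI, with the others at 0. Lcn2 in ependymal cells of SOD1G93A/Clec7a-KO replicate 1 was at 0.118 CPM, also with the others at 0. In these last 2 cases a single UMI stood among libraries without any, so the ratio is at its highest whatever the level, and the chance rate does not apply.

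The transgene effect differed between astrocytes and ependymal cells by edgeR's test of the difference itself. In SOD1G93A against nTg it was larger in astrocytes by log2 4.38 for Vim, 2.01 for Serpina3n, 5.14 for Cd109, 1.56 for Osmr and 6.21 for S1pr3. On the Clec7a-KO background it was larger by log2 4.26 for Vim (adjusted p = 1.14e-10), 4.03 for Cd109 (7.01e-11), 2.82 for Osmr (4.55e-05) and 4.32 for S1pr3 (1.04e-08). The test also called Lcn2, with fitted values of 9.69 and 7.58, which are no measure of the gap: ependymal cells held from 1 to 11 Lcn2 UMIs per group, so the fitted values rest on the prior count.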

How the results depend on the processing

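Depth limits the low genes most: Steap4, Lcn2 and S1pr3 had between 0 and 6 UMIs over all nTg astrocytes, and SOD1G93A/Clec7a-KO replicate 4 had 36 astrocytes. Of the fold changes under alternatives, 1364 kept direction and side of the threshold, 42 lost the call, 15 gained it and 35 changed sign. Counts, levels and shares stayed within their limits in 359 cases and moved in 33.

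Without a low-count filter, 1 gene (Cd109) was called in Clec7a-KO against nTg astrocytes (0 otherwise) and 3 in mural cells (1 otherwise). With at most 5% mitochondrial UMIs, 3 genes differed between astrocytes and ependymal cells (6 otherwise) and 0 were called in endothelial cells (2 otherwise). The library number as covariate gave 1 in endothelial and 2 in mural cells. Library numbers do not overlap between SOD1G93A (1, 5 and 6) and nTg (8, 9 and 12), so every fit with this covariate separates number from group poorly. The sex covariate gave 0 in endothelial and mural cells and 1 each in microglia (2 otherwise) and oligodendrocyte precursors (3 otherwise). No doublet removal gave 0 in mural cells. Leaving out 1 library gave 0 to 2 in endothelial and 0 to 2 in mural cells. The cause was not tested. The share of all genes called was taken in the main fits alone, so calls under the alternatives have no such share beside them.

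Between SOD1G93A/Clec7a-KO and SOD1G93A astrocytes, uncalled values close to 0 changed sign. With at most 5% mitochondrial UMIs Gfap was at -0.011, Serpina3n at 0.23, Cd109 at -0.26 and Osmr at 0.07. With the library number Vim was at 0.15, Lcn2 at -0.14 and S1pr3 at 0.034. Cd109 was at -0.011 without a filter and -0.059 with DESeq2. S1pr3 was at 0.026 with the sex covariate and 0.013 without doublet removal. Leaving out 1 library gave -0.41 to 0.012 for Vim, -0.5 to 0.2 for Serpina3n, -0.31 to 0.88 for Lcn2, -0.21 to 0.28 for Cd109, -0.25 to 0.12 for Osmr and -0.46 to 0.11 for S1pr3. In ependymal cells of SOD1G93A/Clec7a-KO against Clec7a-KO, Cd109 was at 0.033 with at most 5% mitochondrial UMIs and -0.15 to 0.084 with 1 library left out, and Aqp4 at -0.21 to 0.014. The Gfap gap between astrocytes and ependymal cells was -0.43 with at most 5% mitochondrial UMIs and -0.0091 to 0.4 with 1 library left out.

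Without thinning, the shares of nTg and SOD1G93A astrocytes with a UMI were 59.4% and 97.8% for Gfap, 12.2% and 68.8% for Vim, 1.04% and 22.5% for Cd109, 2.06% and 24.9% for Osmr and 8.3% and 26.7% for Aspg. They were 10.8% for Serpina3n in nTg, and 4.07% for Lcn2 and 14.6% for S1pr3 in SOD1G93A.

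The replicate numbers were not treated as pairs in the main fits. Deviations of 19 same-numbered pairs correlated at r = -0.12 to 0.22, with 6 over 0.1. Pairs with unlike numbers were not read beside them, so whether the numbers pair the samples cannot be decided. With the replicate block, 9 of the 10 genes were called in SOD1G93A against nTg astrocytes (Aqp4 added) and 2 instead of 3 in ependymal cells on the Clec7a-KO background. S1pr3 in SOD1G93A/Clec7a-KO against SOD1G93A astrocytes was at 0.0074 under the block.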
